A study of Mus musculus with 2 samples.

Results

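The G2/M and mitosis genes described here are 50 mouse genes listed by symbol, which encode mitotic cyclins and kinases, spindle and kinetochore proteins, condensin subunits and the cytokinesis machinery. All 50 were found, each on 1 row, among the 54713 rows of the deposited gene table. The table compares 2 sublines of SV40 MES13, a mouse kidney line that the labels call mesangial. The AI662270 subline had been infected, by its title, with a lentivirus for the long noncoding RNA AI662270. The control subline had received a control lentivirus, and its genotype is given as WT. Both were selected as stable lines with 0.5 mg/ml puromycin and kept in medium with 10% serum and 0.25 mg/ml puromycin, and the labels call both untreated. The labels conflict in places: the treatment text says in 1 place that the virus expresses the cell line itself, and it names Sox9 as the gene whose expression was checked. The control columns are named Lv_Con and were matched to the sample titled Lv_NC. Groups follow the titles. Whether each subline was a clone or a pool is not stated. Each group held 1 library, so no value below has a replicate check, no p-value was computed, and each ratio compares 2 libraries rather than 2 conditions.

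Entry into mitosis is driven by CDK1 bound to cyclins A and B, and exit by the anaphase-promoting complex (APC/C), a ubiquitin ligase that marks cyclin B and securin for destruction. Transcripts of these genes are low in resting cells and accumulate from late S phase to mitosis. In resting cells the DREAM complex represses them through a promoter element called the CHR (cell cycle genes homology region), and in cycling cells B-MYB and FOXM1 activate them with NF-Y, the factor that binds CCAAT boxes. The large T antigen of SV40, the virus after which the line is named, binds the retinoblastoma family and p53. In bulk RNA, fewer cells in mitosis and less of a transcript per cell cannot be told apart.

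The AI662270 library held 15062482 counts and the control library 15727023. The delivered transcript AI662270 had 241 counts in the AI662270 library and 0 in the control library, where 0 allows up to 3 counts. Sox9 had 97 counts in the AI662270 library and 234 in the control library. Levels are given as CPM, counts scaled to library size by the TMM method, and a bracketed range is a 95% exact interval that covers counting error only. Of 12 mesangial markers, 8 were measured, which means a mean of 1 CPM or more. The whole list summed to 80.1 CPM in the AI662270 library and 81.1 CPM in the control library, but single markers differed by 2-fold or more both ways. Acta2 was higher, with 171 counts in AI662270 and 12 in control. Gata3, with 25 counts in AI662270 and 76 in control, Serpine2, with 10 counts in AI662270 and 28 in control, and Meis1, with 13 counts in AI662270 and 33 in control, were lower. Des had 58 counts in AI662270 and 26 in control, and Itga8 and Thy1 had 0 counts in both. None of 6 endothelial markers, 1 of 6 immune markers and 1 of 6 fibroblast markers was measured. Of 6 podocyte markers 3 were measured, and the list summed to 84.1 CPM in the AI662270 library and 152.9 CPM in the control library. Of 5 proximal tubule markers 3 were measured, and the list summed to 56.5 CPM in the AI662270 library and 63.0 CPM in the control library. The podocyte gene Nphs1 had 0 counts in both libraries. The part of these other genes in the results below was not tested.

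All 50 mitotic genes were expressed in both libraries and nearly all stood at similar levels. Together they took 1.05% of the counts in the AI662270 library and 0.949% in the control library. Their median level was 158.5 CPM in the AI662270 library and 143.6 CPM in the control library, and the member with the fewest counts, Cdc25c, still had 474 counts in the AI662270 library and 477 in the control library. A gene was called when its log2 ratio reached 1, or -1 on the lower side, and its interval left out a ratio of 1. By that rule 1 of the 50 was higher in the AI662270 library, Ccnf, and 0 were lower, against 5.59% called higher and 5.72% called lower among all 13268 measured genes. Mitotic genes are abundant, and among 7034 genes whose mean level reached 30 CPM, a floor chosen after the members' values were seen, 1.55% were called higher and 4.83% lower. The share of 1 in 50 lies near that background. The median log2 ratio of the 50 was 0.08, with quartiles of -0.09 and 0.30 over the members. It was -0.02 over all measured genes and -0.08 over those with at least 30 CPM. Members are not replicates, so no interval is given for the median.

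**Figure D1:**
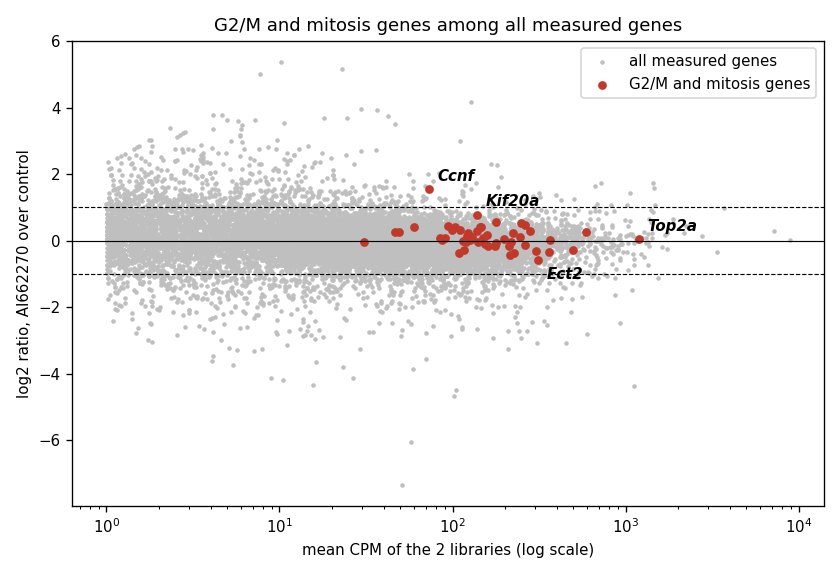
Log2 ratio of the AI662270 library over the control library (vertical axis) against mean CPM (horizontal axis, log scale) for 13268 measured genes in grey and the 50 G2/M and mitosis genes in red, with dashed lines at -1 and 1. All members but Ccnf, at 1.55, lie between the dashed lines.

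The spread of the mitotic genes was narrower than that of all genes, and close to that of the G1/S and DNA replication genes. In 45 of 50, or 90.0%, the log2 ratio lay within 0.5 of 0, a width chosen after the values were seen, against 65.9% of all measured genes, 73.7% of those with at least 30 CPM and 82.9% of the 41 G1/S genes. The interquartile range of the log2 ratio was 0.38 over the 50 genes, beside 0.57 over genes with at least 30 CPM and 0.37 over the G1/S genes. Counting precision was high enough to resolve ratios well under 2-fold: the interval lay above 1 for 24 members and below 1 for 14, against 31.9% above and 35.8% below among all measured genes, and 31.8% above and 46.7% below among those with at least 30 CPM. At 1.5-fold, Ccnf and Kif20a were higher and Ect2 lower, against backgrounds of 5.94% higher and 14.0% lower among genes with at least 30 CPM. In the authors' deposited table, which also compares 1 library with 1 library, Ccnf was the only member with an adjusted p-value under 0.05, at 0.00889, and 4.34% of the genes in that table had one.

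Levels of different genes were compared per kilobase of the deposited gene length. Top2a was the most abundant in both libraries, at 136 CPM per kilobase (134 to 138) in the AI662270 library and 131 (129 to 133) in the control library. It encodes the topoisomerase that untangles sister DNAs. Next came Ube2c, the ubiquitin-conjugating enzyme of the APC/C, at 99.0 CPM per kilobase in the AI662270 library and 91.0 in the control library, and Smc4, a condensin subunit, at 86.1 in the AI662270 library and 104 in the control library. At the low end were the checkpoint genes Mad2l1, at 10.4 in AI662270 and 10.2 in control, and Ttk, at 10.9 in AI662270 and 9.09 in control. The order over the 50 genes was similar in both libraries (Spearman's rho 0.91, n = 50 genes that share 2 libraries and 1 set of lengths). Ccnf stood at rank 26 in the AI662270 library and rank 47 in the control library. That difference rests on its deposited length of 3099 bases. With the 7800 bases of its merged exons in GENCODE M21, an alternative chosen after seeing the data, Ccnf stood at rank 45 in AI662270, at 14.0 CPM per kilobase, and at rank 50 in control, at 4.72. The deposited lengths of Cdc25c, Incenp, Kif11 and Kif20a were also shorter than their merged exons.

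**Figure D2:**
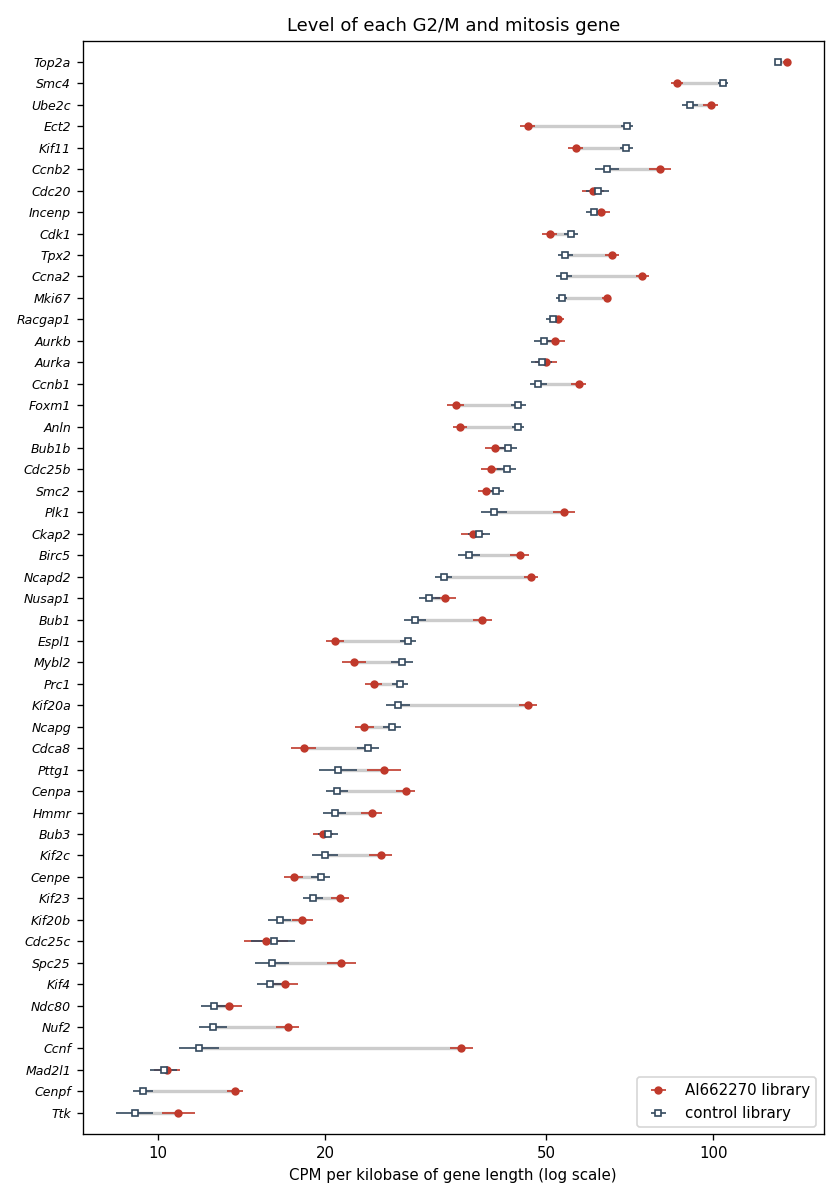
Level of each of the 50 genes in CPM per kilobase of deposited gene length (log scale), with filled red points for the AI662270 library and open dark squares for the control library; bars are 95% exact counting intervals. Genes are ordered by the control library, from Top2a at 131 to Ttk at 9.09, and the longest grey connector belongs to Ccnf.

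Among the cyclins and their kinase, Ccnf stood apart. Cyclin F is the founding F-box protein, the part of an SCF ubiquitin ligase that picks substrates, and despite its name it does not activate a cyclin-dependent kinase. Ccnf (ENSMUSG00000072082) lies on the minus strand at chr17:24223232-24251409 in build mm10. It had 1700 counts in the AI662270 library and 560 in the control library. That is 109 CPM (104 to 114) in AI662270 and 36.8 CPM (33.8 to 40.0) in control, or 2.96-fold higher (2.69 to 3.26). The AI662270 library was the high one, and the counting intervals of the levels did not overlap. No neighbour moved with it by the size rule: the 3 nearest measured genes on either side, Atp6v0c, Tbc1d24, Tedc2, Abca17, Abca3 and D330041H03Rik, had log2 ratios of 0.20, 0.41, -0.13, 0.13, 0.11 and 0.39. The median of 688 measured genes on chromosome 17 was 0.0034. Its promoter is shown because Ccnf alone passed the rule. The RefSeq sequence (build GRCm38.p6, minus strand, chr17:24251410-24251659) covers the 250 bases before the start, 5′ to 3′, and capitals mark each CHR (TTTGAA or its reverse complement TTCAAA) and each CCAAT box (CCAAT or ATTGG):
Ccnf: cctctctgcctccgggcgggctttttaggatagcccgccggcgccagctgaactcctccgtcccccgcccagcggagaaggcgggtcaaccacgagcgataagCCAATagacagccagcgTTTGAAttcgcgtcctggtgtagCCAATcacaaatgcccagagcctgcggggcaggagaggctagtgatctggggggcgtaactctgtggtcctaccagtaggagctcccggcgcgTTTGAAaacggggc
It holds 2 CHR matches and 2 CCAAT boxes, and the CHR nearer the start begins 14 bases before it.

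The other cyclin genes had smaller ratios. Ccna2, cyclin A2, had 4746 counts in the AI662270 library and 3342 in the control library, a ratio of 1.39 (1.33 to 1.45). Part of Ccna2 overlaps Exosc9 on the opposite strand, which had 556 counts in the AI662270 library and 566 in the control library. The B-type cyclins Ccnb1 and Ccnb2 had ratios of 1.18 (1.13 to 1.24) and 1.25 (1.16 to 1.33), so all 4 cyclins had intervals above 1. Their kinase did not share that side. Cdk1 had 3902 counts in the AI662270 library and 4160 in the control library, a log2 ratio of -0.13 that became 0.01 when each chromosome was centred on its median, which was -0.14 on chromosome 10. The phosphatases that activate CDK1 lay near equality, with log2 ratios of -0.09 for Cdc25b and -0.04 for Cdc25c, and both signs turned under at least 1 other scaling or centring.

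**Figure D3:**
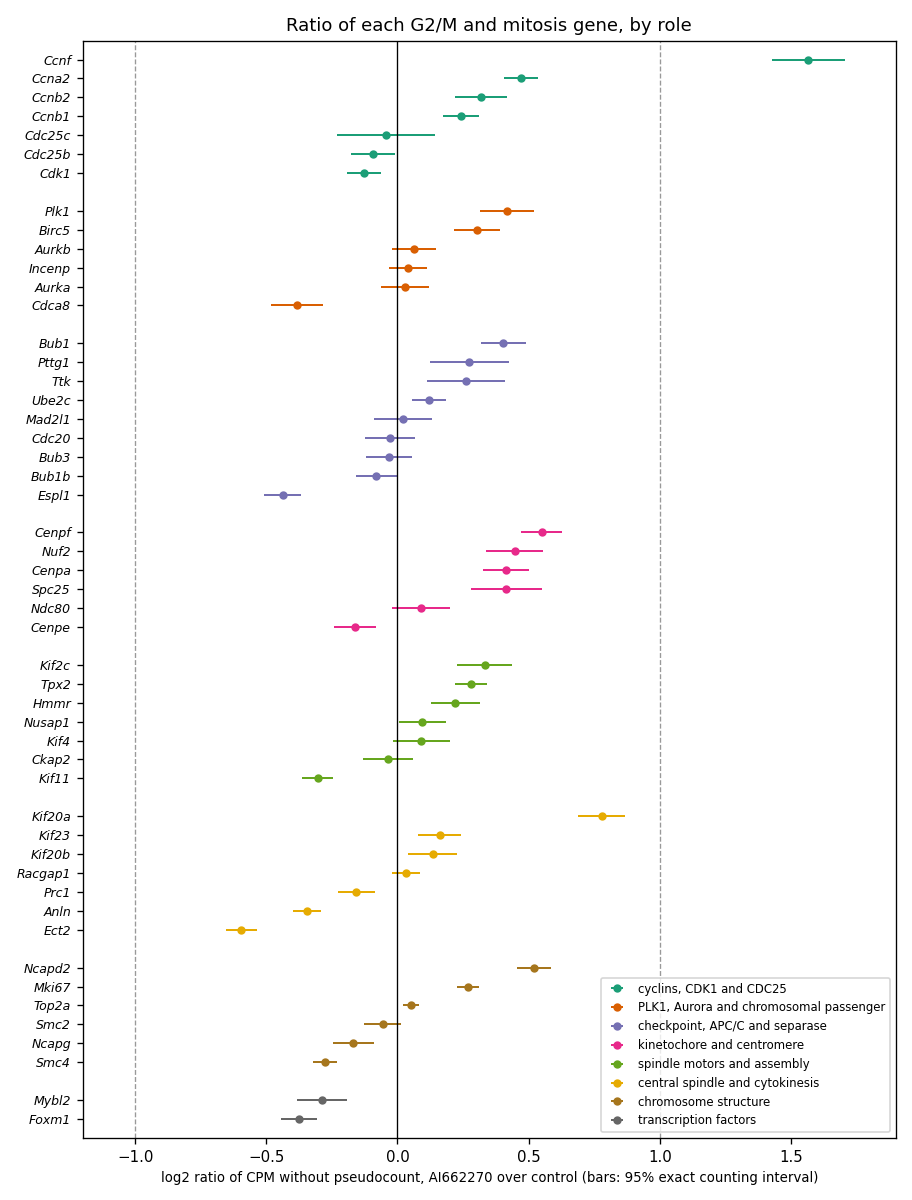
Log2 ratio of CPM, AI662270 over control, without a pseudocount, for the 50 genes grouped and coloured by role; bars are 95% exact counting intervals and dashed lines mark 2-fold. Within most roles the ratios lie on both sides of 0, and Ccnf, at 2.96-fold, is the only gene past a dashed line.

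Among the kinases and the chromosomal passenger complex, ratios lay on both sides of 1. That complex holds Aurora B with INCENP, survivin and borealin, and corrects faulty attachments of chromosomes to the spindle. Aurkb had 2384 counts in the AI662270 library and 2225 in the control library, and its scaffold Incenp 3152 counts in AI662270 and 2989 in control, with log2 ratios of 0.06 for Aurkb and 0.04 for Incenp. Birc5, the survivin gene, had 2377 counts in AI662270 and 1881 in control, a ratio of 1.23 (1.16 to 1.31), and Cdca8, the borealin gene, had 1478 counts in AI662270 and 1882 in control, a ratio of 0.766 (0.715 to 0.821). The intervals of Birc5 and Cdca8 thus lay on opposite sides of 1. Cdca8 overlaps 9930104L06Rik on the opposite strand, which had 316 counts in the AI662270 library and 470 in the control library, and without strand the pair cannot be separated. Polo-like kinase 1, which acts from centrosome maturation to cytokinesis, had 1845 counts in AI662270 and 1347 in control (Plk1, ratio 1.34, 1.25 to 1.43). Aurka, the Aurora kinase of spindle poles, had 1973 counts in AI662270 and 1889 in control, and its ratio of 1.02 (0.956 to 1.09) spanned 1.

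Among spindle checkpoint genes, Bub1 and Ttk had intervals above 1. Bub1, a kinase that recruits the checkpoint to kinetochores, had 2605 counts in the AI662270 library and 1921 in the control library, a ratio of 1.32 (1.25 to 1.404). Its paralogue Bub1b, a subunit of the mitotic checkpoint complex, had 2691 counts in AI662270 and 2775 in control, a log2 ratio of -0.08. The other parts of that inhibitor of the APC/C had log2 ratios of -0.03 for Bub3, 0.02 for Mad2l1 and -0.03 for Cdc20. Of these, Bub1b, Bub3 and Cdc20 changed sign under another scaling or centring. Ttk, the kinase that starts checkpoint signalling, had 835 counts in AI662270 and 680 in control and a ratio of 1.198 (1.08 to 1.33).

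Separase and its inhibitor lay on opposite sides of 1. Espl1 encodes separase, the protease that cuts cohesin at anaphase, and had 2843 counts in the AI662270 library and 3758 in the control library, a ratio of 0.738 (0.703 to 0.775). Pttg1 encodes securin, which holds separase inactive until the APC/C destroys it, and had 797 counts in AI662270 and 643 in control, a ratio of 1.21 (1.09 to 1.34). Ube2c, with 4009 counts in AI662270 and 3596 in control, had a ratio of 1.09 (1.04 to 1.14). None of these passed 1.5-fold.

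The kinetochore and centromere genes had the highest median of all roles, 0.41, and 5 of 6 had a log2 ratio above 0. That count was not particular to them, since the PLK1, Aurora and chromosomal passenger genes also had 5 of 6 above 0. Over all 50 members 31 lay above 0, beside 6458 of 13268 measured genes and 2964 of the 7034 with at least 30 CPM. In the wider list of other mitosis genes 38 lay above 0 and 36 below. Cenpf, a large protein of the outer kinetochore, had 3312 counts in the AI662270 library and 2207 in the control library, a ratio of 1.46 (1.39 to 1.55). Nuf2 and Spc25, of the NDC80 complex that grips microtubule ends, had ratios of 1.36 (1.27 to 1.47) and 1.33 (1.21 to 1.46). Their partner Ndc80 had 1362 counts in AI662270 and 1249 in control and a ratio of 1.06 (0.985 to 1.15), an interval that spanned 1. The remaining subunit, Spc24, taken from the wider list and named after its values were seen, had 261 counts in AI662270 and 256 in control. Cenpa, the histone H3 variant that marks centromeres, had a ratio of 1.33 (1.25 to 1.41), and Cenpe, the kinesin that moves chromosomes to the spindle equator, had 2359 counts in AI662270 and 2575 in control and a ratio of 0.894 (0.845 to 0.946). The Cenpf promoter is shown because its ratio was the highest below the threshold among members with a RefSeq window (minus strand, chr1:189688087-189688336):
Cenpf: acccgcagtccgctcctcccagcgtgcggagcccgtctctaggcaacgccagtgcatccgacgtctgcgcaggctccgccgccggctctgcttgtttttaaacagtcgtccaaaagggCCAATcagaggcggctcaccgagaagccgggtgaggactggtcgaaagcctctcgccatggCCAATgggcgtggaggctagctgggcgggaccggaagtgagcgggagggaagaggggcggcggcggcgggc
These 250 bases hold 2 CCAAT boxes, and the CHR of Cenpf begins 3 bases into the transcribed part, which is not printed.

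Spindle motors and assembly factors had a median log2 ratio of 0.09. Kif11, the kinesin that pushes spindle poles apart, had 4246 counts in the AI662270 library and 5113 in the control library, a ratio of 0.810 (0.778 to 0.844). Tpx2, which activates Aurora A and nucleates microtubules, had 4793 counts in AI662270 and 3853 in control, a ratio of 1.21 (1.16 to 1.27). Kif2c, a kinesin that depolymerises microtubules, had 1715 counts in AI662270 and 1329 in control, a ratio of 1.26 (1.17 to 1.35). Intervals thus lay on both sides of 1 among genes of a single structure. Hmmr, a spindle assembly factor also known as a hyaluronan receptor, had a ratio of 1.16 (1.09 to 1.24) and Nusap1, a microtubule bundler, 1.07 (1.003 to 1.14). Kif4, a chromosome-bound kinesin, and Ckap2, a microtubule stabiliser, had log2 ratios of 0.09 and -0.04, and both signs turned under other settings. The Kif11 promoter is shown because its level per deposited length, averaged over both libraries, was the highest among members with a ratio below 1 and a RefSeq window (plus strand, chr19:37376132-37376381):
Kif11: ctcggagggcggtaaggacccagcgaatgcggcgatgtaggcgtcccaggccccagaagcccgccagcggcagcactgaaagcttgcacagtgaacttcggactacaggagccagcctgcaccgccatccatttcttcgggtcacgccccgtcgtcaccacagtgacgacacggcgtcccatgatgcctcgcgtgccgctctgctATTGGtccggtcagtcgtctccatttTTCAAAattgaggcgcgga
It holds 1 CHR on the reverse strand and 1 CCAAT box.

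Cytokinesis genes held the lowest ratio of all and the highest after Ccnf. The lowest was that of Ect2, the exchange factor that switches on RhoA at the cell equator. It lies on the minus strand at chr3:27097222-27153878 (mm10) and had 3892 counts in the AI662270 library and 5734 in the control library, or 249.8 CPM (242 to 258) in AI662270 and 377 CPM (367 to 387) in control. These counting intervals did not overlap, with AI662270 the lower, and the ratio was 0.662 (0.636 to 0.690). Anln, the anillin scaffold of the contractile ring, also lay below 1, with 4947 counts in AI662270 and 6133 in control and a ratio of 0.787 (0.758 to 0.817). Centralspindlin is the complex of KIF23 and RACGAP1 that activates ECT2. Kif23 had a ratio of 1.12 (1.06 to 1.18), an interval above 1, and Racgap1 had 1.02 (0.985 to 1.06), which spanned 1. Prc1, which bundles midzone microtubules, had a ratio of 0.897 (0.854 to 0.942), and Kif20b, a kinesin needed for abscission, 1.10 (1.03 to 1.17). The Ect2 promoter, shown for the lowest ratio of the 50, reads as follows (minus strand, chr3:27153879-27154128):
Ect2: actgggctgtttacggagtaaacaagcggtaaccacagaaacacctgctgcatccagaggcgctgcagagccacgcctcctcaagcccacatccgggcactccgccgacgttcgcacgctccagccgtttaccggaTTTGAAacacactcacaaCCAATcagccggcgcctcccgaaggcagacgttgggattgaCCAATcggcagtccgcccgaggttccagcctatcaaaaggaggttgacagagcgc
These 250 bases carry 1 CHR and 2 CCAAT boxes. A further CCAAT box begins 2 bases into the transcribed part and a further CHR 40 bases into it, neither of which is printed. The Ccnf promoter holds the same kinds of element. Whether they bear on the ratios was not tested.

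At the other end was Kif20a, with the highest ratio after Ccnf. It encodes MKLP2, the kinesin that carries the chromosomal passenger complex to the central spindle. The gene lies on the plus strand at chr18:34624624-34633265 (mm10) and had 2744 counts in the AI662270 library and 1561 in the control library, or 176 CPM (170 to 183) in AI662270 and 103 CPM (97.6 to 108) in control. These counting intervals did not overlap, with AI662270 the higher. The ratio was 1.72 (1.61 to 1.83), which did not reach the 2-fold rule. Kif20a overlaps Cdc23 on the opposite strand by 2315 bases, and Cdc23 had 1475 counts in AI662270 and 1179 in control, so the reads of the pair cannot be fully separated. In the authors' deposited table its unadjusted p-value was 0.0609.

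Both transcription factors of the list, known as activators of many of the other members, had ratios below 1. Foxm1 had 3082 counts in the AI662270 library and 3901 in the control library, a ratio of 0.771 (0.735 to 0.808). Mybl2, which encodes B-MYB, had 1627 counts in AI662270 and 1938 in control, a ratio of 0.819 (0.766 to 0.875). Neither passed 1.5-fold. The summed level of the pair was 302 CPM in the AI662270 library and 384 CPM in the control library.

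Chromosome structure genes had summed levels of 2992 CPM in the AI662270 library and 2874 CPM in the control library. Top2a had 19050 counts in AI662270 and 17940 in control, and its ratio of 1.04 (1.02 to 1.06) shows how narrow counting error was at this depth. Mki67, the proliferation marker that coats mitotic chromosomes, had 10076 counts in AI662270 and 8162 in control, a ratio of 1.205 (1.17 to 1.24). Of the condensin I subunits, Ncapd2 alone had an interval above 1. Ncapd2, a regulatory subunit that helps condensin I bind chromosomes, had 4583 counts in AI662270 and 3116 in control and a ratio of 1.44 (1.37 to 1.502). Ncapg had 2592 counts in AI662270 and 2841 in control and a ratio of 0.890 (0.844 to 0.939). The core ATPases Smc2 and Smc4 had ratios of 0.962 (0.916 to 1.01) and 0.826 (0.800 to 0.853). The remaining subunit, Ncaph, was taken from the wider list after its values were seen. It had 2986 counts in AI662270 and 3089 in control, a ratio of 0.943 (0.897 to 0.992). The Top2a promoter is shown for the most abundant gene of all (minus strand, chr11:99024190-99024439):
Top2a: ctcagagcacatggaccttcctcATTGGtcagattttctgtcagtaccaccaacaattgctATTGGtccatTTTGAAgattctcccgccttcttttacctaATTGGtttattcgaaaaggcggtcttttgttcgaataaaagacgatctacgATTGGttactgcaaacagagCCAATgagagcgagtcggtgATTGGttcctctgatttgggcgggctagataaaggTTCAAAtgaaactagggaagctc
It holds 2 CHR matches and 6 CCAAT boxes.

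RefSeq promoter windows of 300 bases, from 250 before the start to 50 after it, were at hand for 42 members; Aurkb, Ccna2, Cdc25c, Foxm1, Incenp, Kif20a, Smc4 and Tpx2 were not matched. The CHR (TTTGAA, both strands) was present in 32 of 42 windows, or 76.2%, against 18.1% of 27025 genes with a window and 11.2% of the 5549 of them with at least 30 CPM. A CCAAT box (CCAAT, both strands) was present in 32 of 42 as well, against 37.9% of all genes with a window. Both motifs were present in 28 members, or 66.7%, against 7.12% of all genes. Matches shared bases in Cdca8 and Ube2c. These shares describe the sequences, not binding. The median log2 ratio was 0.07 in the 32 members with a CHR (range -0.59 to 1.55) and 0.17 in the 10 without (-0.29 to 0.44), so the ranges overlapped.

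Many matches in the members began near the start, but their positions were not compared with those in other genes. Of 41 CHR matches, 30 began within 60 bases before the start or after it, and 41 of 70 CCAAT boxes began 20 to 120 bases before it, limits chosen after the scan was seen. The distance between neighbouring CCAAT boxes on the same strand varied, from 23 bases in Cenpa to 128 in Cdk1. Of 20 members with at least 2 boxes, 8 had neighbouring boxes on the same strand that began 30 to 36 bases apart, or 40.0%. The share was 10.7% of 3286 genes with at least 2 boxes and 15.99% of 1495 such genes that were measured. That range of distances was also chosen after the scan was seen, from these same members, so the shares are no test of a common spacing. Short stretches of 110 bases up to the start are shown for genes where that spacing or the box and CHR arrangement can be read, all on the minus strand: chr13:100786487-100786596, chr9:70421555-70421664, chr10:69352913-69353022, chr2:172370571-172370680 and chr4:118437344-118437453.
Ccnb1: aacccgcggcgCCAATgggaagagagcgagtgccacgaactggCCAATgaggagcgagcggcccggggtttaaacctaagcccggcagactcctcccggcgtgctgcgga
Ccnb2: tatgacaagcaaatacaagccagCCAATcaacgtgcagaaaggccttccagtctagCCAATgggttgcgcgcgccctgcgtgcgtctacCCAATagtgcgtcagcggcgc
Cdk1: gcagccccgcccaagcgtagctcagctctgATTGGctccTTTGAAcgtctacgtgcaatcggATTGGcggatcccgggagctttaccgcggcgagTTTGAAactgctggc
Aurka: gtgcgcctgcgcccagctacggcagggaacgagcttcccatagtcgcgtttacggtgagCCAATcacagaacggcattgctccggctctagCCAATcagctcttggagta
Cdc20: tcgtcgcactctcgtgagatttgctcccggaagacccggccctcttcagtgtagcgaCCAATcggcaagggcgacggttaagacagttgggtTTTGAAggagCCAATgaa
Boxes begin 32 bases apart in Ccnb1, Cdk1 and Aurka, and 33 bases apart between each of the 3 boxes of Ccnb2. Those of Cdc20 begin 45 bases apart. Within these stretches, Cdk1 and Cdc20 have a CHR close to the start, at 15 and 18 bases before it. In Ccnb2 and Aurka a CHR begins 5 and 33 bases into the transcribed part, which is not printed. The log2 ratios of the 5 genes, in the order shown, were 0.24, 0.32, -0.13, 0.03 and -0.03. The signs of Cdk1, Aurka and Cdc20 turned under at least 1 other scaling or centring. Whether the arrangement bears on the ratios was not tested.

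**Figure D4:**
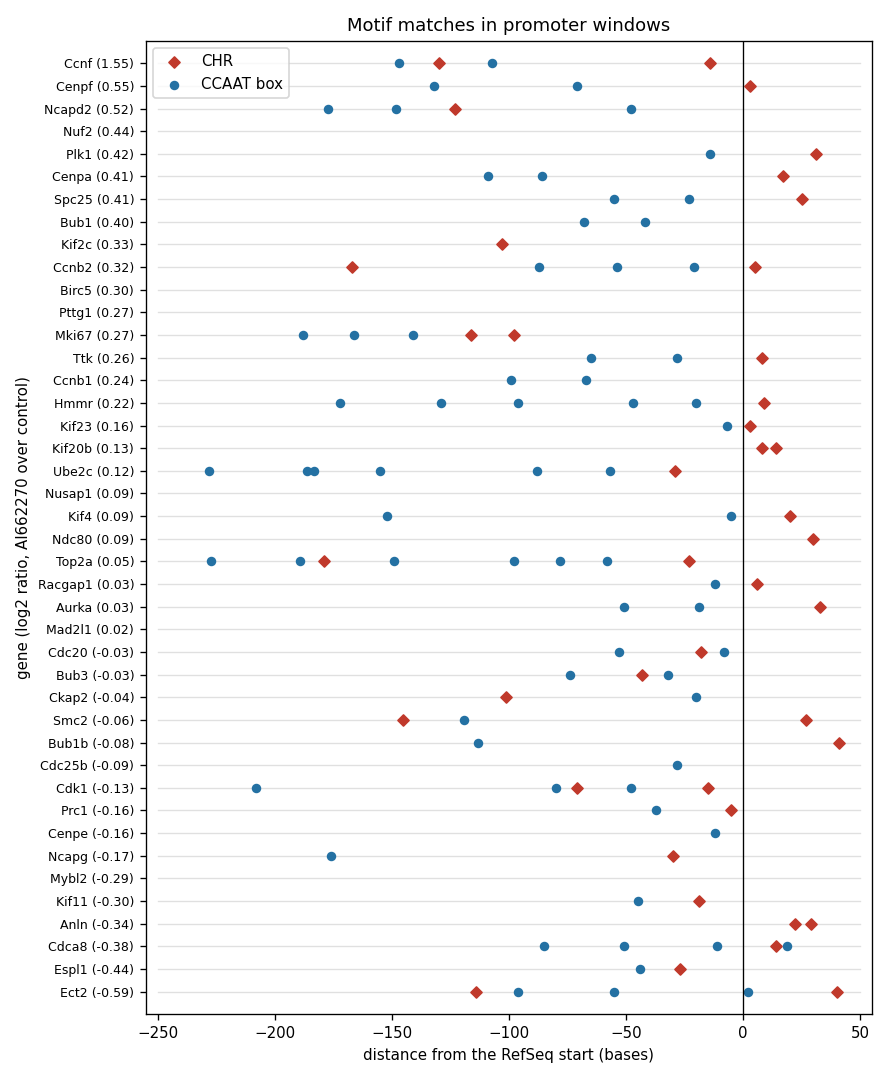
Positions of CHR matches (red diamonds) and CCAAT boxes (blue circles) relative to the RefSeq start, in bases, in the windows of 42 members ordered by log2 ratio, which is given beside each name. Both motifs occur from the highest ratio, 1.55 for Ccnf, to the lowest, -0.59 for Ect2.

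Other lists of the same machinery are read against the same backgrounds, 5.59% called higher and 5.72% lower among all measured genes and 1.55% higher and 4.83% lower among those with at least 30 CPM, and nothing is read from a count of 0 in lists this small. Of 74 measured mitosis genes outside the 50, 2 were called higher and 0 lower, with a median log2 ratio of 0.01. Fam83d, which recruits a kinesin to the spindle, had 955 counts in the AI662270 library and 415 in the control library and was 2.25-fold higher (1.999 to 2.53). Ckap4, 2.37-fold higher (2.16 to 2.61), encodes a membrane protein of the endoplasmic reticulum that anchors microtubules, so its place among mitosis genes is loose. Of 17 genes of the APC/C and its regulators none was called, the median was 0.18, and the most abundant, Anapc5 and Anapc1, had log2 ratios of 0.46 and 0.24. None of 9 genes of the WEE1 kinases and the Greatwall axis, which hold back or sustain CDK1 activity, was called. Their median was -0.27, with 3 log2 ratios above 0 and 6 below. The most abundant, Ppp2r2a and Ensa, had log2 ratios of -0.86 and -0.27.

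Regulators that act through the CHR or CCAAT boxes had a median log2 ratio of -0.001. Of 14 measured MuvB, DREAM and NF-Y genes, 0 were called higher and 1 lower, against 5.59% higher and 5.72% lower among all measured genes. Nothing is read from 1 call in a list this small. The called gene was Lin52, a subunit of the MuvB core. Lin52 had 146 counts in the AI662270 library and 328 in the control library and was 2.30-fold lower (1.89 to 2.82). The gene sits on chromosome 12, where the median log2 ratio of 477 measured genes was -0.35, and it no longer passed the rule when each chromosome was centred on its median. No member of the 50 lies on that chromosome.

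Cohesin and its regulators had 0 calls in 14, a median of -0.17, and log2 ratios of -0.53 for Rad21 and -0.33 for Pds5a. Partners and known substrates of the cyclin F ligase also had 0 calls, in 11 genes, with a median of 0.03. Rrm2, the ribonucleotide reductase subunit that cyclin F marks for destruction, had a log2 ratio of -0.58 and lies on chromosome 12, and Slbp, the histone mRNA binding protein, had 0.24. For comparison, 0 of 41 G1/S and replication genes were called. The backgrounds were 5.59% higher and 5.72% lower among all measured genes. Among those with at least 30 CPM they were 1.55% higher and 4.83% lower. Nothing is read from these counts of 0. The G1/S genes had a median of 0.03 and log2 ratios of 0.16 for Mcm7 and 0.34 for Rrm1. The median of the 50 mitotic genes thus lay within 0.1 of that of the G1/S genes.

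**Figure D5:**
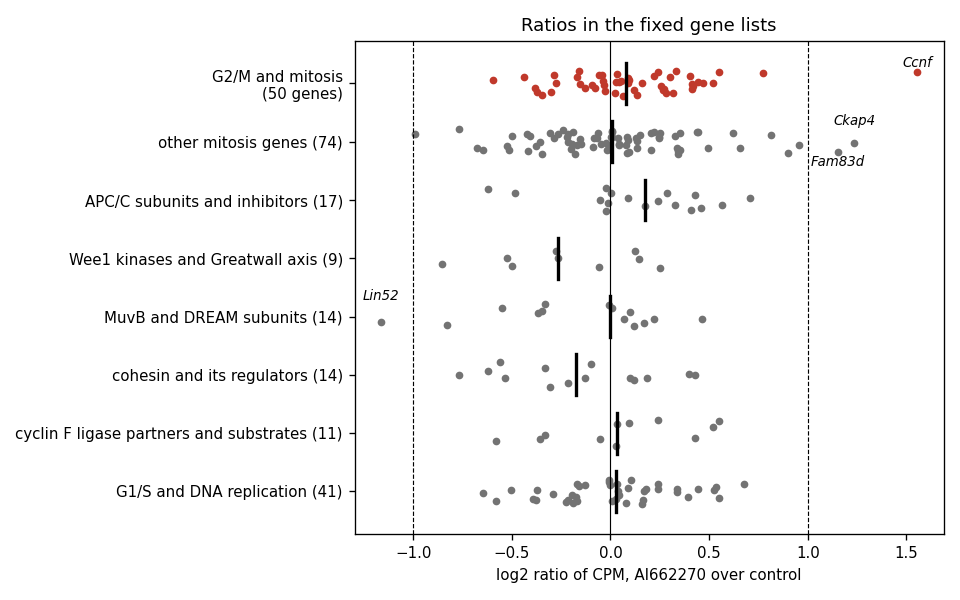
Log2 ratio of each measured gene, AI662270 over control, in the 50 G2/M and mitosis genes (red) and 7 further lists (grey, number of genes in brackets); black bars are medians and dashed lines mark 2-fold. Ccnf, Fam83d and Ckap4 lie above 1 and Lin52 below -1.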

How the data were processed

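RNA of 2 sublines was sequenced, 1 library per group; the labels call it polyadenylated, while the design text names removal of ribosomal RNA. Reads were processed with CASAVA 1.4 and TopHat2 on build mm10, per the submitters' processing notes; the sources used here name no read counter, annotation release or strand setting. The deposited counts are whole reads per gene without normalization, judged from the file headers and values. The deposited FPKM values divide counts by gene length, and were used as an alternative. The authors' deposited log2 fold changes and p-values compare 1 library with 1 library and are quoted only where named. Deposited coordinates equalled those of GENCODE M21 for 46 of 50 members (not Ccnf, Cdc25c, Incenp or Kif20a), and deposited lengths equalled the merged exons for 45. Genes overlapping on opposite strands cannot be separated, and 20 members overlap a gene with a count.

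Libraries were scaled by TMM (edgeR 4.0.16, R 4.3.3) with factors of 1.03 for AI662270 and 0.967 for the control. Log2 ratios used a pseudocount of 0.5 CPM, and measured genes had a mean of at least 1 CPM. Ratios in brackets are exact Clopper-Pearson intervals of the share of 2 counts, and brackets after a level are exact Poisson intervals (Python 3.11.15, scipy 1.17.1). Reads carry no molecular identifiers, so intervals and the floor of 3 counts cover counting error only. Alternatives were scaling by totals, DESeq2 1.42.0 size factors or upper quartiles, other pseudocounts, filters and thresholds, protein-coding genes alone, FPKM, and centring by chromosome or length bin. Promoter windows come from RefSeq (GRCm38.p6). For a member with several, the start nearest the gene's own was used. The start used lay 3867 bases from the gene's own in Kif2c and 2394 in Cdca8, and both windows held a CHR. The 30 bases after the start were found in an annotated transcript of the gene for 26 of 42 members. For other genes it was the first listed.

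All 50 members are named. Of other lists, genes past the rule or the 2 most abundant are named. The members and lists were chosen with earlier results of these data known.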

Additional observations from a re-analysis of the deposited data

How the results depend on the processing

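No paired analysis was possible because each group held 1 library. Ccnf passed the size rule in 12 of 13 alternatives. Some of these could not change its call. A 1.5-fold threshold is looser than the rule, and the filter and protein-coding settings left every listed ratio as it was. At a threshold of 3-fold 0 members were called higher and 0 genes of the other lists were called. At 1.5-fold 2 members were higher and 1 member was lower. Of the 175 measured genes of the other lists, 20 were called at 1.5-fold, some higher and some lower. The backgrounds at 1.5-fold were 5.94% higher and 14.0% lower among genes with at least 30 CPM, a level that not all of the 175 reach. The median log2 ratio of the members ranged from 0.06, without Ccnf, a setting chosen after seeing the data, to 0.17, when libraries were scaled by total counts, which moved the median of all measured genes to 0.08. Signs turned in at least 1 alternative for 10 members, all with log2 ratios within 0.13 of 0. Of 583 gene values under other settings, 68 left their counting interval, 37 of them under scaling by total counts, and 0 changed sign among called genes. The 583 include the filter and protein-coding settings, under which no value could move. Depth limits little here, since Cdc25c, the member with the fewest counts, had 474 counts in AI662270 and 477 in control; the lack of replicates limits every ratio.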

Other observations

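Condensin II and centriole genes of the wider mitosis list, singled out after their values were seen, had log2 ratios on both sides of 0. Ncapg2, a condensin II subunit on chromosome 12, had 2789 counts in the AI662270 library and 5414 in the control library, a ratio of 0.503 (0.480 to 0.526), just inside the 2-fold rule. Its partners Ncapd3 and Ncaph2 had ratios of 0.769 (0.722 to 0.821) and 1.10 (1.05 to 1.15). Plk4, the kinase that starts centriole duplication, had 1665 counts in the AI662270 library and 2773 in the control library, a ratio of 0.586 (0.551 to 0.623). Stil, which PLK4 phosphorylates during that step, had 1086 counts in AI662270 and 1696 in control, a ratio of 0.625 (0.578 to 0.675). Sass6, whose product forms the centriole cartwheel, had 324 counts in AI662270 and 287 in control, and its ratio of 1.10 (0.937 to 1.30) spanned 1. Melk, a mitotic kinase gene outside both groups and also picked by its value, had 1893 counts in the AI662270 library and 985 in the control library. Its ratio was 1.88 (1.74 to 2.03). None of these passed the size rule. Other genes of that list also passed 1.5-fold, among them Sapcd2 and Tubb4b higher and Iqgap3 lower. At 1.5-fold, 5.94% of genes with at least 30 CPM were called higher and 14.0% lower.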
